A study of Mus musculus with 6 samples.

Results

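The 10 genes described here are Spry1, Spry2 and Spry4 (the Sprouty genes), Spred1, Spred2 and Spred3 (the Spred genes), and Dusp1, Dusp4, Dusp5 and Dusp6, which encode dual specificity phosphatases. They were chosen by name as feedback inhibitors of the Ras/MAPK pathway, and make up 10 of the 23997 gene symbols listed for each library. The rule goes by name and uses no measured value. RNAseq was carried out on gastrocnemius, the large calf muscle, of 3 HrasG12V and 3 wild-type (WT) mice, with 1 library per mouse. All mice were 21 days old and untreated. HrasG12V mice (2276, 2278 and 2279) had the genotype Caggs-Cre+/HrasG12V/+, in which Cre driven by the ubiquitous CAG promoter had replaced the WT copy on the targeted allele with an activating glycine-to-valine mutant under the Hras promoter. WT mice (2277, 2280 and 2281) were Caggs-Cre-/HrasflG12V/+, so they carried the same targeted allele without recombination and lacked Cre. The study's methods call them littermates of the mutants, and which mice shared a litter is not given in the sources used here. Every comparison therefore set the mutant allele and the Cre transgene together against neither, and these cannot be told apart. Both genotypes shared a mixed SWR/J, 129S1/SvImJ and C57BL/6J background, and the whole muscle holds fibres, vessels, nerve and blood-derived cells. In such tissue, fewer cells of a type and less RNA per cell cannot be told apart.

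Receptor tyrosine kinases and Ras pass their signal through Raf and MEK to the ERK kinases, and ERK in turn switches on genes whose products damp the same route. Sprouty proteins act near the receptors and Raf, in part by binding the adaptor Grb2 and the ubiquitin ligase Cbl. Spred proteins share the cysteine-rich Sprouty domain and bring the Ras GTPase-activating protein neurofibromin to the membrane. Dual specificity phosphatases remove phosphate from the MAP kinases themselves, Dusp6 in the cytoplasm with a preference for ERK, Dusp5 in the nucleus with the same preference, and Dusp1 and Dusp4 in the nucleus on ERK, Jnk and p38. In skeletal muscle Spry1 is known for its expression in quiescent satellite cells, the stem cells of the fibre.

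The values are FPKM, mapped fragments scaled to transcript length and library size, so levels of different genes can be compared per length. Each gene was compared on the log2(FPKM + 0.1) scale with limma, and a gene was said to rise or fall only when its Benjamini-Hochberg adjusted p was below 0.05. The added 0.1 makes fold changes of weakly expressed genes too small. The study's methods give an approximate number of reads per sample, not per gene. Read counts were not used here, so the reads behind each value are unknown and precision comes from the spread between mice. Among 13359 genes with a mean of at least 0.5 FPKM, 8 (0.0599%) passed the adjusted p, and the median log2 fold change of all genes was -0.03.

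Several properties of the libraries bear on the members. In mouse 2276 the difference from the WT mean depended on transcript length. Its median was 0.60 (log2) for genes with a longest transcript of up to 2000 nucleotides, 0.13 for 2000 to 4000, and -0.35 above 4000. In the other 5 mice the same medians lay between -0.12 and 0.02. The longest transcripts of Spry4, Spred1, Spred2 and Spred3 have 4056 to 6016 nucleotides, and those of the other 6 members 2087 to 2796. The summed FPKM of 5 B cell markers was 0.562 to 1.07 in WT and 1.33 in mouse 2276, but 74.1 in mouse 2278 and 59.3 in mouse 2279 (the lymphocyte-rich mice). Transcripts of Y-linked genes were near 0 in WT mouse 2277 and HrasG12V mouse 2276 and had 5.10 to 40.4 FPKM in the other 4. Of 7 muscle fibre markers, Acta1 and Myh4 were listed at 0 in all 6 libraries, Ckm in 5, Myh1 in 2 and Tnnt3 in 1, while Mylpf reached 10760 to 36114 FPKM in every mouse. A listed 0 for such genes can be a failed estimate, and no member was at 0 in any mouse. Hras itself, the targeted gene, had 36.8, 36.0 and 51.8 FPKM in WT and 58.8, 28.9 and 16.0 FPKM in HrasG12V mice. These sums over both alleles overlapped between genotypes (log2 fold change -0.44, adjusted p = 0.797) and do not show by themselves which allele was expressed. From its sequence reads, the study reports that HrasG12V gastrocnemius expressed both alleles, in roughly equal amounts.

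All 10 members were detected in every mouse and passed the filter on low values, and none rose or fell at the adjusted p. Dusp1, the immediate early phosphatase, was the most abundant at a mean of 106.4 FPKM over the 6 mice, percentile 95.1 among the genes tested. Spry1 followed at 19.7 FPKM, then Dusp6, Spry2, Spred1, Spred2, Spry4, Dusp4, Spred3 and Dusp5. Of neighbours in this order, the ranges over the 6 mice were separate only between Dusp1 and Spry1, between Spry1 and Dusp6, and between Spry2 and Spred1. The least abundant, Dusp5, stood at percentile 4.43. Of the 10 members 7 had a positive log2 fold change, beside 46.6% of all genes tested, and their median was 0.11. An unadjusted p below 0.05 was reached by 1 member, Spry1, beside 10.2% of all genes (5.18% higher and 4.99% lower), so the share among the members was near the background. Values of the genotypes did not overlap for Spry1 and Spry2, which were higher in HrasG12V mice, and for Spred3, which was lower. Such separation was seen on the higher side in 8.11% and on the lower side in 10.4% of all genes.

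**Figure D1:**
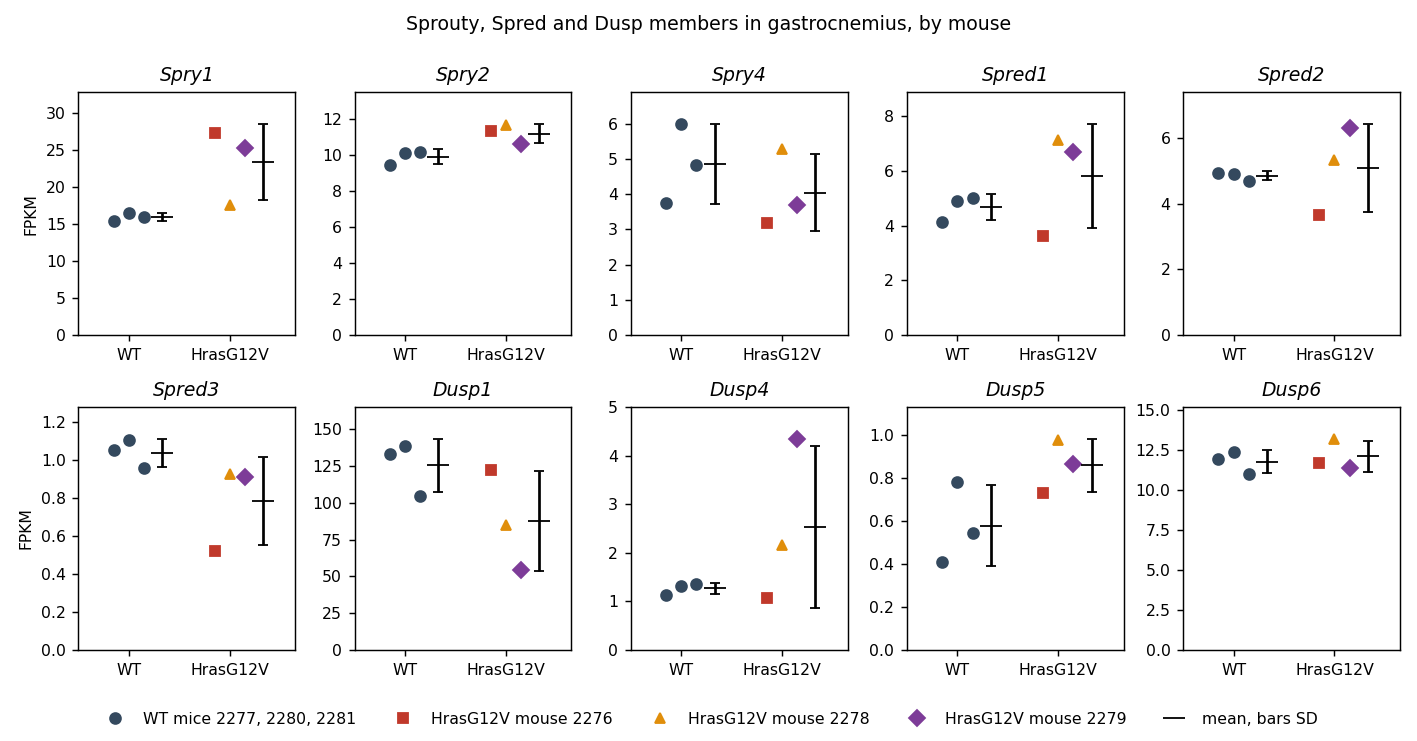
FPKM (vertical axis, from 0) of each member in the 3 WT mice (circles) and in HrasG12V mice 2276 (square), 2278 (triangle) and 2279 (diamond), with the mean and SD of each genotype (n = 3). The HrasG12V values of Spry1 (17.6 to 27.4) lie above the WT values (15.4 to 16.5), while the HrasG12V mice spread widely for Dusp1 and Dusp4.

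Promoters from RefSeq (GRCm38.p6) were matched for 8 of the 10 members. The 250 bases before the annotated start are printed for Spry1 and Spry2, the pair whose HrasG12V values all lay above WT, for Dusp1, the most abundant member, and for Dusp5, which held the most motif matches. The letters searched on both strands were GGAAGT for ETS factors and TGACGTCA for the cAMP response element (CRE). The AP-1 site (TGA and TCA around any 1 base), the TATA box (TATAAA) and the CArG box of serum response factor were searched as well. Capitals mark every match. The windows of Spry1 (chr3:37639697-37639946, plus strand) and Spry2 (chr14:105896820-105897069, minus strand) held none of these. The window of Dusp1 (chr17:26508473-26508722, minus strand) held 1 CRE, starting 143 bases before the start, as did 1.55% of all 32851 RefSeq promoters. The window of Dusp5 (chr19:53528895-53529144, plus strand) held 2 adjoining CArG boxes, 82 and 72 bases before the start, and an ETS match 193 bases before it, printed as its reverse complement. A CArG box was found in 1.47% and the ETS letters in 19.7% of all promoters. Among the other members the ETS letters were found in Spred2 only, and AP-1 (6.75% of promoters) and TATAAA (12.4%) in none of the 8. A match is a description of these letters, not of binding.
Spry1: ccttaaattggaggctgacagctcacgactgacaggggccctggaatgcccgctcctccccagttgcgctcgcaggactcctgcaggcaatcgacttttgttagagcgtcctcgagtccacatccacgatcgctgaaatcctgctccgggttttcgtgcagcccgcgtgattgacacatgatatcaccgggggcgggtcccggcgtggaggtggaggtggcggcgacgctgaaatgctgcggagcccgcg
Spry2: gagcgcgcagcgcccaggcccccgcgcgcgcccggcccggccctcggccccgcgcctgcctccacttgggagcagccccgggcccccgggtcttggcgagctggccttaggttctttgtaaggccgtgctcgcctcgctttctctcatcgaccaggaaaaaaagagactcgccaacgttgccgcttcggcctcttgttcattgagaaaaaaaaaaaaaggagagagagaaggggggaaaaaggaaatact
Dusp1: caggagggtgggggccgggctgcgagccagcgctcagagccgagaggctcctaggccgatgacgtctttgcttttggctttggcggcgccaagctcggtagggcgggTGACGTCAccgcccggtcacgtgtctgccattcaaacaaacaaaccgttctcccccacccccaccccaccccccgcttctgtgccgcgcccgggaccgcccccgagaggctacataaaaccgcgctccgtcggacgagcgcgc
Dusp5: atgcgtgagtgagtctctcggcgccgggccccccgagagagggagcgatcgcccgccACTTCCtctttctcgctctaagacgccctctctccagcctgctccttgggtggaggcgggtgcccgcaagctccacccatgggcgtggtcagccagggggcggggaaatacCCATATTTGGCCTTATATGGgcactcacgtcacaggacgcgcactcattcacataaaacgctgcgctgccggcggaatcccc

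In the GENCODE vM21 annotation of GRCm38 the members are protein-coding genes on 10 different chromosomes. Spry1 lies at chr3:37639947-37644598 (plus strand), Spry2 at chr14:105891947-105896819 (minus) and Spry4 at chr18:38586247-38601415 (minus), each with 2 exons in its longest coding transcript. Spred1 lies at chr2:117121374-117182279 (plus), Spred2 at chr11:19924375-20024026 (plus) and Spred3 at chr7:29158829-29170411 (minus). Dusp1 lies at chr17:26505590-26562128 (minus), Dusp4 at chr8:34807297-34819894 (plus), Dusp5 at chr19:53529109-53542431 (plus) and Dusp6 at chr10:99263231-99267489 (plus). Spred3 overlaps Ggn, and the long annotated span of Dusp1 overlaps Ergic1, both on the opposite strand. Whether strand was used in making the FPKM is not given in the sources used here, so reads of such pairs may not have been told apart. Ggn had 0.309 to 0.579 FPKM and Ergic1 had 18.2 to 29.1 FPKM over the 6 mice. Dusp5 overlaps an antisense transcript, and Spry1 an unreviewed transcript on the minus strand.

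Spry1 showed the clearest difference of the Sprouty genes. It had 15.4, 16.5 and 16.0 FPKM in WT mice 2277, 2280 and 2281 (mean 16.0 ± 0.516, SD, n = 3). In HrasG12V mice it had 27.4 (2276), 17.6 (2278) and 25.3 (2279) FPKM (mean 23.4 ± 5.16, SD, n = 3). All 3 HrasG12V mice were above all WT mice, with mouse 2278 just above them. The log2 fold change was 0.52 (SE 0.21, 95% interval 0.03 to 1.02), a fold of 1.44, with an unadjusted p of 0.0408 and an adjusted p of 0.481 by limma, so the call was not made. With each library's trend over transcript length removed, the log2 fold change was 0.53 (unadjusted p = 0.0186, adjusted p = 0.399). The unadjusted p was 0.0570 without moderation and 0.0852 after scaling to the same total, where Spry2 (0.0315) and Dusp1 (0.0354), respectively, were the only members below 0.05. Leaving out any 1 mouse gave 0.40 to 0.72, and the unadjusted p was below 0.05 in 1 of these 6 fits.

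Satellite cell markers did not go one way. Pax7, the defining transcription factor of satellite cells, had 1.08 to 1.28 FPKM in WT and 1.60 to 1.99 FPKM in HrasG12V mice, without overlap. Myf5 was likewise higher in every mutant (1.54 to 2.34 FPKM) than in WT (1.20 to 1.47 FPKM), and Calcr overlapped. Cdh15, the most abundant of the 5, had 9.66 to 10.3 FPKM in WT, 12.6 FPKM in mouse 2276, and only 6.45 (2278) and 8.38 (2279) FPKM in the lymphocyte-rich mice. Vcam1, which other cell types also express, had 2.93 to 3.36 FPKM in WT, 3.35 FPKM in mouse 2276, and 8.64 (2278) and 9.88 (2279) FPKM. The sum of all 5 was 16.3 to 16.7 FPKM in WT and 20.9, 19.4 and 23.5 FPKM in mice 2276, 2278 and 2279. Without Vcam1 it was 13.3 to 13.4 FPKM in WT and 17.5, 10.8 and 13.6 FPKM in these mutants. None was at 0 in any mouse, and 4 of 5 had a positive log2 fold change. The part of satellite cells in the Spry1 difference was not tested.

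Spry2, which shares the Sprouty domain and acts at the same steps, was close to even. It had 9.41, 10.1 and 10.2 FPKM in WT and 11.3, 11.6 and 10.6 FPKM in HrasG12V mice 2276, 2278 and 2279. The groups did not overlap, but the distance was small (log2 fold change 0.17, SE 0.13, adjusted p = 0.712). The 95% interval of the fold, 0.903 to 1.41, leaves room for a modest change in either direction. Removing the length trend placed mouse 2276 at 0.13 below the WT mean (log2) in place of 0.19 above it, so the groups then overlapped. Spry4, an inhibitor of receptor-driven Ras activation, was under the WT mean in 2 of 3 mutants. Its FPKM were 3.74, 5.99 and 4.82 in WT and 3.18, 5.27 and 3.68 in HrasG12V mice. The genotypes overlapped (log2 fold change -0.26, SE 0.26, adjusted p = 0.774).

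The sum of the 3 Sprouty genes was 28.6, 32.6 and 31.0 FPKM in WT and 41.9, 34.5 and 39.6 FPKM in HrasG12V mice. Spry1 made up 50.6% to 54.0% of this sum in WT. It made up 65.3% and 64.0% in mice 2276 and 2279 but 51.0% in mouse 2278, within the WT range. Spry1 thus took a larger share of the family in 2 of the 3 mutants, and these shares were not tested.

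**Figure D2:**
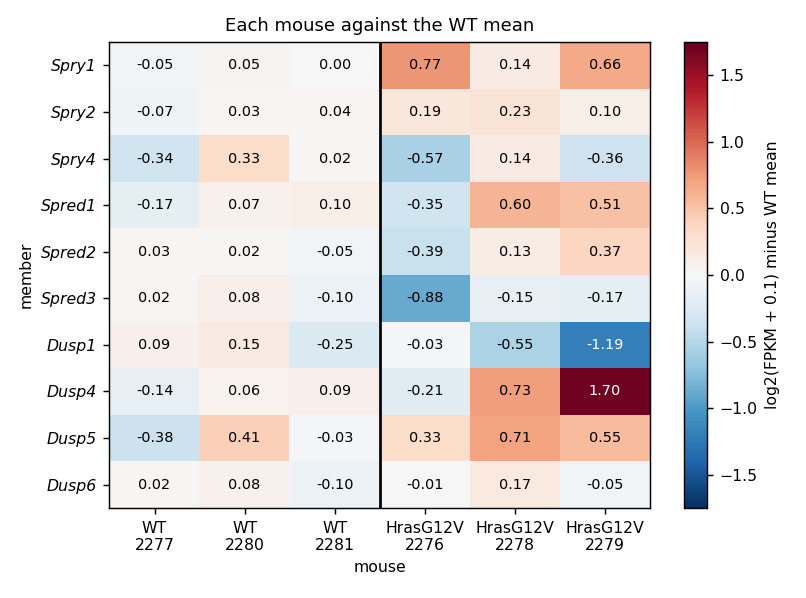
Colour and number give log2(FPKM + 0.1) of each member (rows) in each mouse (columns) minus the WT mean of that member, with WT mice left of the black line. Mouse 2276 is below the WT mean for all 3 Spred genes and Dusp4, while mice 2278 and 2279 are above it for Spred1, Spred2 and Dusp4 and below it for Dusp1.

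Spred1 and Spred2 were low in mouse 2276 and high in mice 2278 and 2279, while Spred3 was lower in all 3 mutants than in WT. Spred1, the Spred gene mutated in Legius syndrome, had 4.14, 4.90 and 4.99 FPKM in WT. Mouse 2276 lay below WT at 3.63 FPKM, while mice 2278 (7.12) and 2279 (6.68) lay above (log2 fold change 0.25, SE 0.27, adjusted p = 0.806). Spred2 followed the same pattern on a smaller scale, with 4.94, 4.90 and 4.69 FPKM in WT and 3.66, 5.32 and 6.30 FPKM in HrasG12V mice (log2 fold change 0.04, SE 0.22, adjusted p = 0.974). Spred3, the family member with the weakest action on ERK, was low throughout. It had 1.05, 1.10 and 0.957 FPKM in WT against 0.518, 0.924 and 0.907 FPKM in HrasG12V mice, which were all below WT. Mouse 2276 set most of that difference (log2 fold change -0.40, SE 0.31, adjusted p = 0.714).

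Without mouse 2276, 29.9% of all genes passed the unadjusted p and 10.3% the adjusted p, beside 3 and 0 of the 10 members. In that fit the log2 fold change of Spred1 was 0.56 (unadjusted p = 0.0053, adjusted p = 0.0507 by limma) and that of Spred3 was -0.16. The value of Spred1 was 0.078 without mouse 2278 (unadjusted p = 0.796) and 0.12 without mouse 2279 (unadjusted p = 0.702). In mouse 2276 the long transcripts of all 3 Spred genes fall in the length class whose median was low. With the length trend removed, mouse 2276 stood at 0.09 for Spred1, -0.22 for Spred2 and -0.78 for Spred3 relative to the WT mean (log2), against -0.35, -0.39 and -0.88 before. The log2 fold change of Spred1 was then 0.43 (unadjusted p = 0.0552, adjusted p = 0.454). In mouse 2276 Spred1 then lay just above the WT mean, while Spred2 and Spred3 still lay under it. The genotypes then overlapped for Spred3, with mouse 2278 at -0.08 and the lowest WT mouse at -0.12.

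Dusp1 had 132.9, 138.7 and 104.9 FPKM in WT, and 122.4, 85.1 and 54.5 FPKM in HrasG12V mice 2276, 2278 and 2279. As deposited, mouse 2276 lay inside the WT range and the other 2 mutants below it. The log2 fold change was -0.59 (SE 0.33, 95% interval -1.38 to 0.21), and the adjusted p was 0.603. Without mouse 2276 it was -0.87 (unadjusted p = 0.0132, adjusted p = 0.0816 by limma), and without mouse 2279 it was -0.29. With the length trend removed, mouse 2276 moved to -0.29 relative to the WT mean (log2), just under the lowest WT mouse at -0.28, so that all 3 mutants were below WT. The log2 fold change was then -0.62 (unadjusted p = 0.0516, adjusted p = 0.453 by limma). Dusp4, which acts on the same 3 kinases in the nucleus, was the mirror image. It had 1.14, 1.32 and 1.35 FPKM in WT and 1.08 FPKM in mouse 2276. Mouse 2278 had 2.17 FPKM and mouse 2279 had 4.35 FPKM. Its log2 fold change was 0.74 (SE 0.47, adjusted p = 0.638), 1.22 without mouse 2276 (unadjusted p = 0.0094, adjusted p = 0.0674) and 0.26 without mouse 2279. Over the 6 libraries Pearson's r between Dusp1 and Dusp4 was -0.963, the most negative of the member pairs. This is a description over 6 points that include both lymphocyte-rich mice.

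Lymphocyte markers were high in the same pair of mice as Dusp4. The summed FPKM of 5 T cell markers was 0.701 to 0.942 in WT and 0.865 in mouse 2276, against 23.9 and 32.0 in mice 2278 and 2279. All 5 B cell and all 5 T cell markers had a positive log2 fold change. In WT mice 1 B cell marker, Pax5, was at 0 in mouse 2280, and in mouse 2276 Ms4a1 and Cd8a were at 0. Neutrophil markers summed to 0.716 to 3.57 FPKM in WT and to 19.7, 129.5 and 50.8 FPKM in mice 2276, 2278 and 2279, with all 5 positive. Camp was at 0 in mouse 2281, and Ltf in mice 2277 and 2276. Schwann cell markers had the order of Dusp4 among the mutants, with sums of 227.5, 517.4 and 618.9 FPKM in mice 2276, 2278 and 2279 against 134.8 to 372.0 FPKM in WT, all 5 positive and none at 0. The 5 adipocyte markers summed to 400.7 to 704.2 FPKM in WT and to 783.4, 816.6 and 774.3 FPKM in mice 2276, 2278 and 2279, all 5 positive and none at the unadjusted p. Of these, Adipoq, Plin1 and Cidec were highest in mice 2278 and 2279, with mouse 2276 inside the WT range, and Lep overlapped as well. Fabp4 was highest in mouse 2276 and was the only 1 of the 5 without overlap. At 395.4 to 768.9 FPKM over all mice, Fabp4 made up most of each sum.

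The summed markers of 3 other cell types were lower in every HrasG12V mouse than in WT, and no single marker of them passed the adjusted p. Tendon markers summed to 244.1 to 492.2 FPKM in WT and 89.6 to 201.1 FPKM in HrasG12V mice, with 4 of 5 lower at the unadjusted p and Scx overlapping. Smooth muscle and pericyte markers summed to 317.6 to 378.1 FPKM in WT and 161.9 to 277.8 FPKM in HrasG12V mice, with 4 of 5 negative. Only Rgs5 was lower at the unadjusted p (189.4 to 217.0 FPKM in WT and 63.9 to 132.5 FPKM in HrasG12V mice), Tagln was positive, and Myh11 was above every WT mouse in mouse 2278. Endothelial markers had sums of 150.9 to 182.7 FPKM in WT and 128.6 to 133.0 FPKM in HrasG12V mice. All 5 endothelial markers had a negative log2 fold change, 2 of them (Cdh5 and Tie1) at the unadjusted p, and Emcn was above every WT mouse in mouse 2276. No marker of these 3 lists was at 0. Macrophage and fibroblast sums overlapped between genotypes. Macrophage markers summed to 30.8 to 36.5 FPKM in WT and 44.0, 66.7 and 36.3 FPKM in mice 2276, 2278 and 2279, with all 4 positive. Fibroblast markers summed to 1401 to 2907 FPKM in WT and 645.7, 2512.6 and 749.1 FPKM in these mutants, with all 5 negative. The part of any of these cell types in the values of Dusp4, Dusp1 and Spred1 was not tested.

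Dusp5 and Dusp6, the ERK-selective phosphatases, gave no call either. Dusp5 was near the filter, with 0.407, 0.781 and 0.546 FPKM in WT and 0.728, 0.978 and 0.865 FPKM in HrasG12V mice. One WT mouse, 2280, lay inside the HrasG12V range (log2 fold change 0.53, SE 0.35, adjusted p = 0.662). Dusp6 had 11.9, 12.4 and 11.0 FPKM in WT and 11.7, 13.2 and 11.3 FPKM in HrasG12V mice. The genotypes overlapped almost wholly, and the log2 fold change was 0.04 (SE 0.15, adjusted p = 0.961). The 95% interval of the fold ran from 0.806 to 1.31.

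**Figure D3:**
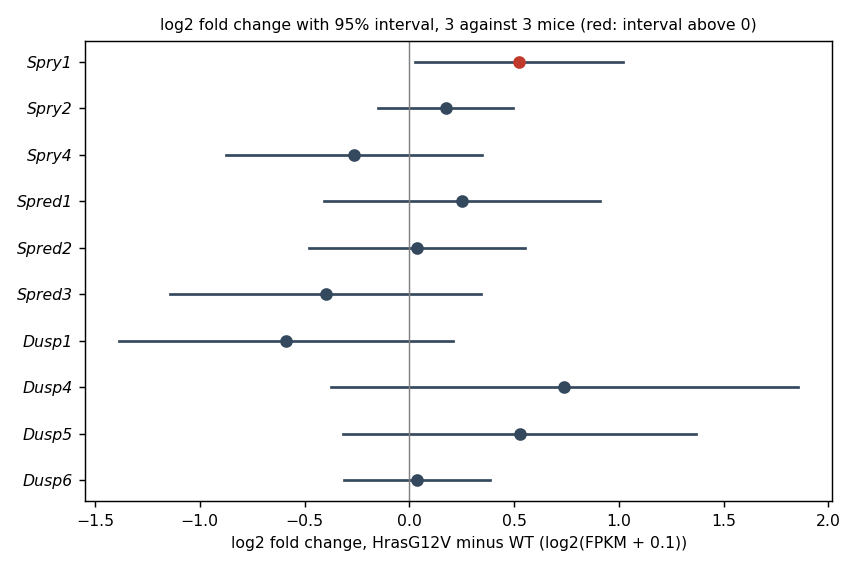
Log2 fold change of each member, HrasG12V minus WT on the log2(FPKM + 0.1) scale (horizontal axis), with the 95% interval from limma (3 against 3 mice). Only the interval of Spry1, 0.03 to 1.02, lies above 0, and that of Dusp4, -0.37 to 1.86, is the widest.

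Mouse by mouse, the members did not form 1 pattern. By the FPKM as deposited, mouse 2276 had 2 members above and 5 below the WT range. Mouse 2278 had 7 above and 2 below, and mouse 2279 had 6 above and 3 below. The share of all genes outside the range of the 3 WT mice was not computed. The counts therefore only describe the members and are no result about them. Members that were above the WT range in all 3 mutants were Spry1 and Spry2, and Spred3 was below it in all 3. These counts depended on the length trend. With it removed, mouse 2276 had 2 above (Spry1 and Spred1) and 7 below, mouse 2278 had 7 above and 1 below, and mouse 2279 had 6 above and 2 below. Spry1 and Spred1 were then above the WT range in all 3 mutants, and Dusp1 was below it in all 3. In mouse 2276 the margins (log2, relative to the WT mean) were small. Spred1 was at 0.095 against a highest WT value of 0.080, and Dusp1 at -0.289 against a lowest of -0.276. The share of all genes separated in this way was not computed with the length trend removed. With the 2 lymphocyte-rich mice left out together, 1 mutant remained against 3 WT mice, whose spread it was assumed to share. In that fit 3 members passed the adjusted p, Spry1 (log2 fold change 0.77, adjusted p = 0.0135), Spred3 (-0.88, adjusted p = 0.0440) and Spred2 (-0.39, adjusted p = 0.0493), but so did 4673 genes, 36.1% of those tested. These values describe mouse 2276 alone.

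**Figure D4:**
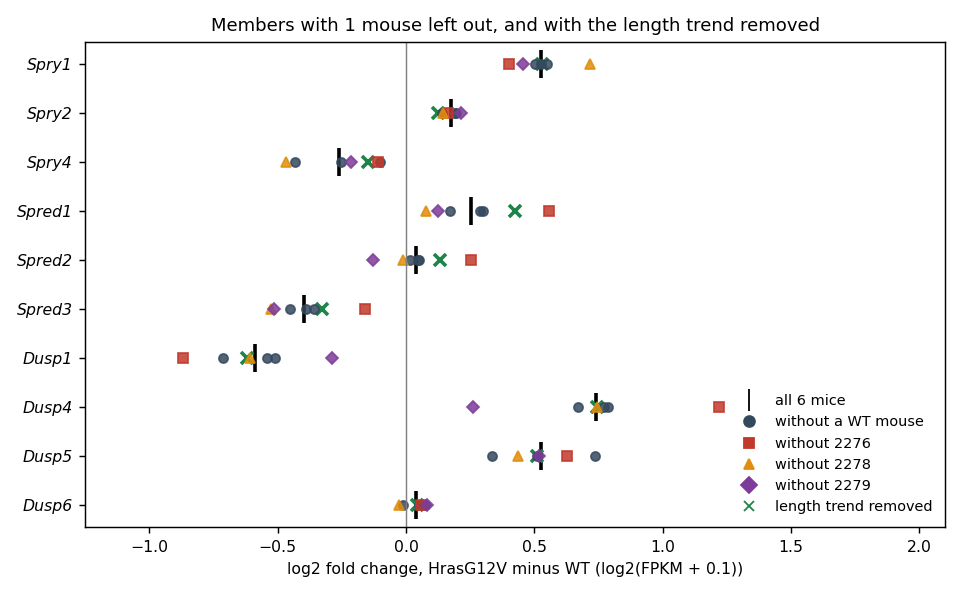
Log2 fold change of each member (horizontal axis, HrasG12V minus WT) with all 6 mice (bar), without each WT mouse (circles), without each HrasG12V mouse (square, triangle, diamond) and with the length trend removed (cross). Spry1 stays between 0.40 and 0.72, while Dusp4 moves from 0.26 to 1.22 and Spred2 from -0.13 to 0.25.

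Other genes of the pathway were taken from 6 lists, to be read beside the 46.6% of all genes with a positive log2 fold change. The remaining MAP kinase phosphatases and Spry3 numbered 7, of which 5 were tested and 3 had a positive log2 fold change (median 0.07). None passed the adjusted p. Dusp2, a phosphatase of immune cells, had 0.445, 0.338 and 0.442 FPKM in WT. It had 0.659, 3.51 and 6.34 FPKM in mice 2276, 2278 and 2279 (log2 fold change 2.36, unadjusted p = 0.0179, adjusted p = 0.435), with the high values in the lymphocyte-rich mice. Dusp7, a cytoplasmic ERK phosphatase, had a log2 fold change of 0.16, Dusp16 of -0.04 and Dusp8, a Jnk and p38 phosphatase, of -0.35. Spry3 was listed at 0 in all 6 mice, and Dusp9 at no more than 0.057 FPKM.

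Other genes used as readouts of ERK numbered 9, of which 8 were tested and 6 had a positive log2 fold change (median 0.29). At the unadjusted p, 3 were higher (Etv5, Ccnd1 and Myc) and 1 was lower (Epha4), beside 5.18% and 4.99% of all genes, and none passed the adjusted p. These 4 genes became 2 after scaling to the same total, 2 without moderation and 1 without WT mouse 2281. Myc, chosen after its values were seen, had a log2 fold change of 0.64 (unadjusted p = 0.0281, adjusted p = 0.468). Etv5, an ETS transcription factor induced by ERK, had 8.72, 8.28 and 9.002 FPKM in WT and 33.9, 20.8 and 25.2 FPKM in HrasG12V mice. All 3 mutants were at more than the highest WT value, mouse 2276 most of all. Its log2 fold change was 1.58 (SE 0.21, unadjusted p = 0.000178, adjusted p = 0.198). The adjusted p of Etv5 was 0.0185 after quantile normalization, 0.0124 with array weights and 0.0048 without mouse 2276, so the call depended on the processing. Ccnd1, which encodes cyclin D1, had 3.50, 3.75 and 3.19 FPKM in WT and 7.94, 11.6 and 4.30 FPKM in HrasG12V mice (log2 fold change 1.06, adjusted p = 0.439). The ephrin receptor genes Epha4 (-0.79, adjusted p = 0.433) and Epha2 (-0.37, adjusted p = 0.633) had the lowest log2 fold changes. Etv5 thus had a larger difference than any of the 10 members, and the contrast between them was not tested.

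Immediate early genes, which ERK and stress kinases induce within minutes, numbered 13. Of these, 11 had a positive log2 fold change (median 0.45), beside 46.6% of all genes tested. None passed the adjusted p, and the genotypes overlapped for all 13. Dusp1 belongs to the same class of response, and its log2 fold change was negative. Fosb (log2 fold change 1.06, adjusted p = 0.570) and Junb (1.05, unadjusted p = 0.0258, adjusted p = 0.456) were highest. Junb had 7.97, 12.4 and 7.38 FPKM in WT and 29.0, 19.5 and 11.7 FPKM in HrasG12V mice, so mouse 2279 lay inside the WT range. Nr4a1, a nuclear receptor gene, was lowest (-0.72, adjusted p = 0.539). It had 150.9, 165.8 and 183.7 FPKM in WT and 164.8, 84.3 and 74.0 FPKM in HrasG12V mice, which gives the same order of mutants as Dusp1. Zfp36, whose product destabilises AU-rich mRNA, was at -0.25 (adjusted p = 0.761).

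The 10 genes of the core route from Ras to ERK had 3 positive log2 fold changes, a median of -0.10 and none at the unadjusted p. Map2k1 (0.14) and Mapk3 (0.09), which encode MEK1 and ERK1, were highest. Hras (-0.44) was lowest. Of 8 genes for partners of the members, 2 were positive, and the median was -0.07. The adaptor genes Grb2 (0.16) and Shc1 (0.08) were highest. Cbl (-0.71), the ligase bound by Sprouty, and Cav1 (-0.47), which encodes caveolin-1, were lowest. Cbl had 3.26, 3.77 and 3.28 FPKM in WT, and in mutants 0.761 (2276), 3.47 (2278) and 3.15 (2279), so 1 mouse set its value. The list of p38 and Jnk kinases, on which Dusp1 and Dusp4 also act, includes the kinases upstream of them. Of its 10 genes, 9 were tested, 2 were positive and the median was -0.21. Mapk11, which encodes p38 beta, had 1.01, 1.05 and 1.08 FPKM in WT and 1.43, 2.21 and 2.35 FPKM in HrasG12V mice (log2 fold change 0.84, unadjusted p = 0.0125, adjusted p = 0.412). Mapk12, for p38 gamma, was at 0.12. The kinase genes Map2k6 (-0.73, adjusted p = 0.577) and Map2k4 (-0.41, unadjusted p = 0.0455, adjusted p = 0.488) were lowest.

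**Figure D5:**
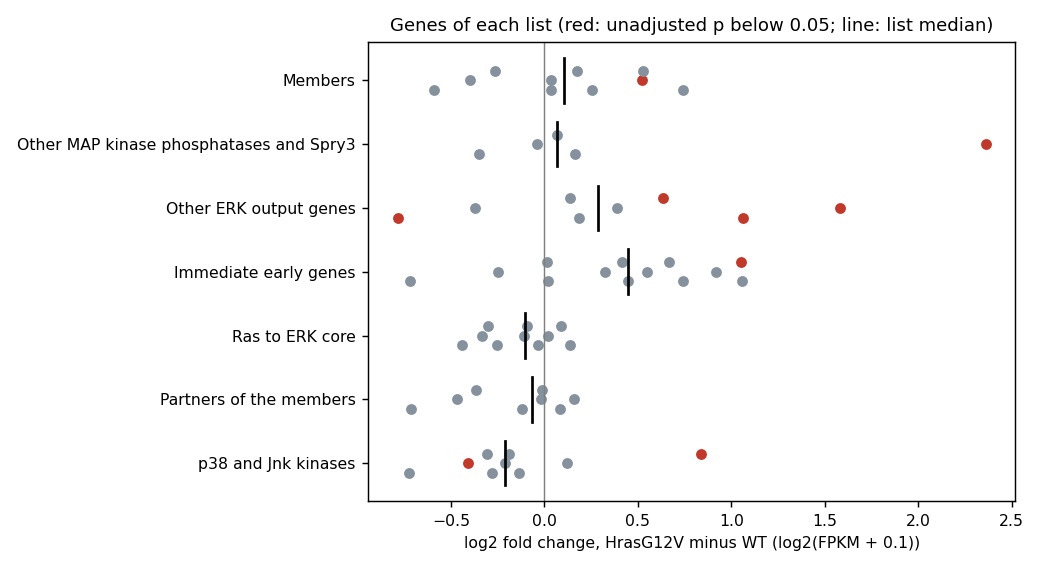
Each point is the log2 fold change of 1 tested gene, HrasG12V minus WT (horizontal axis), in the members and the 6 pathway lists (rows). Vertical bars are list medians (0.11 for the members, 0.45 for immediate early genes), and red points have an unadjusted p below 0.05 (the rightmost are Dusp2 at 2.36 and Etv5 at 1.58).

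Genes with the pattern most like Spry1 and Dusp1 were sought among 7885 genes with a mean of at least 5 FPKM, by Pearson's r of log2(FPKM + 0.1) over the 6 libraries. For Spry1 they were Aspscr1 (r = 0.990), 2810008D09Rik (r = 0.988) and Trim28 (r = 0.987). Aspscr1, which encodes a tether of glucose transporter vesicles, had 14.1, 14.0 and 14.2 FPKM in WT and 27.5, 14.6 and 24.4 FPKM in HrasG12V mice, high in mice 2276 and 2279 as Spry1 was. For Dusp1 they were Rnf128 (r = 0.992), Arhgef7 (r = 0.987) and Lyrm5 (r = 0.985), all lowest in mouse 2279. Values of r above 0.95 were found for 30 genes with Spry1 and for 21 with Dusp1.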

How the data were processed

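Gastrocnemius RNA of 6 mice was made into stranded mRNA libraries (KAPA kit) and sequenced as single-end reads. Per the labels and methods, bcl2fastq, TopHat, Cufflinks and Cuffnorm were used, with GRCm38 or mm10 in the submitters' processing notes. The sources used here do not give versions, annotation or strand setting. The authors deposited FPKM per gene symbol, scaled between libraries by Cuffnorm, so FPKM totals are not depths. Ratios of low values were checked for whole-read steps. The fullest interval of 0.01 (log2) held 0.504% to 2.35% of genes, so no reads were recovered and no count model was used.

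Genes with a mean of at least 0.5 FPKM were compared as log2(FPKM + 0.1) in R 4.3.3 using limma 3.58.1 (moderated, trend over abundance, two-sided, no covariate), with Benjamini-Hochberg adjustment over 13359 genes. The script was tested on simulated data. Groups came from the labels, which give no sex, litter or batch. P-values measure the spread between these mice. Members and gene lists were chosen with earlier results of these data known. Named were all members, the 2 highest and 2 lowest genes of each list, and the 3 genes most like the member with the lowest p and the most abundant member. The value of 1 list gene named by this rule is not reported here. Lengths and positions came from GENCODE vM21 (99.3% of tested genes had a length), and figures from Python 3.11.15 with matplotlib 3.10.9. Alternatives were other pseudocounts, filters, scalings and moderation, array weights, a Y-linked covariate and mice left out. The removal of the length trend (lowess) and the repeats for list genes were chosen after seeing the data.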

Additional observations from a re-analysis of the deposited data

How the results depend on the processing

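No paired analysis was possible because the mouse numbers are not shared between the genotypes and the labels do not tie littermates together. Of 188 values of members under alternatives, 178 kept direction and side of the adjusted p. Those reversed were Dusp6 (-0.012 without WT mouse 2281, -0.028 without mouse 2278, up to 0.080), Spred2 (-0.011 without 2278, -0.13 without 2279, up to 0.25) and, without 2278 and 2279 together, Spred1 -0.35, Spred2 -0.39, Dusp4 -0.21 and Dusp6 -0.0061. That last setting left 3 members with positive values. It brought 3 members and 4673 genes past the adjusted p, and 3 members and 6372 genes past the unadjusted p. Genes past the adjusted p numbered 5 with a pseudocount of 1, 1 without moderation, 572 with array weights and 6 to 1374 with 1 mouse left out, the most without 2276. Genes past the unadjusted p numbered 1358 of 13359 in the main fit. They numbered 717 after scaling to the same total, 1693 after quantile normalization, 3042 with array weights and 606 to 4006 with 1 mouse left out. The member counts that follow are to be read beside these. The 1 member past the unadjusted p was Spry2 without moderation and Dusp1 after scaling to the same total. Members past it numbered 2 after quantile normalization, 4 with array weights and 0 to 3 with 1 mouse left out (3 without 2276, 0 without each WT mouse or 2279). The filter at 1 FPKM removed Spred3 and Dusp5. Other named genes reversed as follows: Dusp16 0.094 with the length trend removed and -0.14 to 0.063 with 1 mouse left out, Mapk3 -0.014 and Mapk12 -0.15 with array weights. With 1 mouse left out, Mapk3 ranged from -0.00046 to 0.20, Mapk12 from -0.21 to 0.36, Dusp7 from -0.093 to 0.42, Map2k1 from -0.0045 to 0.23, Grb2 from -0.031 to 0.27 and Hras from -0.92 to 0.010. Without 2278 and 2279, Dusp8 was 0.44, Dusp16 0.16, Hras 0.52, Shc1 -0.042, Arhgef7 0.046 and Lyrm5 0.049. Etv5 passed the adjusted p after quantile normalization (0.0185) and, with array weights, so did Etv5 (0.0124), Dusp2 (0.0145), Mapk11 (0.0286) and Nr4a1 (0.0411). These 4 and Myc passed without 2276 (0.0048 to 0.0435), and 12 named genes outside the members passed in the same direction without 2278 and 2279. The cause was not tested.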

Other observations

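A further 14 gene symbols beginning with Dusp, outside the members and the lists, were looked at after their values were seen. Many of them encode atypical phosphatases that lack the MAP kinase binding domain. Of the 13 tested, 4 had a positive log2 fold change, with a median of -0.45, and 0 passed the adjusted p. An unadjusted p below 0.05 by limma was reached by 1 gene, beside 10.2% of all genes tested. That gene was Dusp3, which encodes a small phosphatase active on ERK and Jnk. It had 53.1, 58.6 and 60.0 FPKM in WT and 44.0, 44.9 and 36.9 FPKM in HrasG12V mice (log2 fold change -0.45, adjusted p = 0.481). With each library's trend over transcript length removed it was -0.36, and with 1 mouse left out it stayed between -0.50 and -0.36. The unadjusted p by limma was below 0.05 in 2 of the 6 fits with 1 mouse left out.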
